A study of Mus musculus with 18 samples.

Results

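Type I interferon-stimulated genes were followed as a set of 39 named genes among the 47729 genes counted in mouse colon. The set is a list of names made from what the genes are known for, and it was drawn up with earlier results of these data known. Type I interferons are cytokines that bind a receptor on nearly every cell and, through the kinases JAK1 and TYK2, activate a transcription factor complex that contains STAT2 and IRF9. This complex binds interferon-stimulated response elements (ISREs) and switches on genes whose products sense foreign nucleic acid, degrade viral RNA, block viral translation and restrain viral budding. In the intestine, epithelial cells and resident leukocytes respond to type I interferon, and many of the same genes also answer to type III interferon or interferon-gamma.

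RNA-Seq compared 3 groups of 3 mice each, all on a C57BL/6 background. The naive WT mice were wild-type mice whose labels give the treatment as control, although the treatment protocol in the labels names azoxymethane and DSS for every sample. The WT CAC mice carried the same wild-type genotype and had colitis-associated cancer (CAC) induced by 10 mg/kg azoxymethane, a carcinogen, and 3 cycles of 2.5% dextran sulfate sodium (DSS), which injures the colonic epithelium. The Cldn2TG CAC mice had the same azoxymethane and DSS treatment and carried a Cldn2 transgene driven by the Villin promoter, which is active in intestinal epithelium. No control group of Cldn2TG mice was analysed here, and the labels give the tissue only as colon, without saying whether tumors were included. Mice are numbered 1 to 3 (naive WT), 4 to 6 (WT CAC) and 7 to 9 (Cldn2TG CAC), as the labels number them.

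Each mouse had 14142711 to 22262546 counted reads, so that 3 counts correspond to 0.13 to 0.222 CPM, the count scaled to a common library size with TMM factors. Cldn2, the gene carried by the transgene, was at 191, 259 and 245 CPM in the naive WT mice, 119, 137 and 132 CPM in the WT CAC mice and 208, 218 and 251 CPM in the Cldn2TG CAC mice. It was thus higher in Cldn2TG CAC than in WT CAC mice (log2 difference 0.78 ± 0.12 SE, edgeR adjusted p = 0.0103) but overlapped naive WT mice (-0.03 ± 0.12, edgeR adjusted p = 0.897). Mouse 1 was the only female by expression, with Xist at 214 CPM against at most 0.203 CPM in the other mice. The 9 epithelial marker genes, which check the labelled tissue, summed to 21127 to 22437, 20650 to 26901 and 22636 to 27804 CPM in the naive WT, WT CAC and Cldn2TG CAC groups, and none of them was called in WT CAC against naive WT or in Cldn2TG CAC against WT CAC.

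Regulatory letters in the promoters of these genes are shown first, because the list was drawn up without using sequence. RefSeq promoters on GRCm38.p6, each of 300 bases from 250 before to 50 after a transcript start, were available for 28 of the 39 genes. The ISRE core was searched as GAAA, any 2 bases and GAAA again, or TTTC, any 2 bases and TTTC where it lies on the opposite strand, and overlapping matches were allowed. It stood in the promoters of 14 of these 28 genes (50%), against 1079 of 27025 genes with a promoter in the table (3.99%). The windows of 30 bases below were chosen to show a gene of each response described later, read 5′ to 3′ on the strand of the gene, with matching letters in capitals.
Isg15: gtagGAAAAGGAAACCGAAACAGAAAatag
Bst2: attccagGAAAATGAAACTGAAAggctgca
Ifit1: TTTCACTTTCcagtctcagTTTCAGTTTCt
Ifit3: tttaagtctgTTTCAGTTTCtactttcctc
Ifit3b: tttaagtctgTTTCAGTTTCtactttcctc
Ifitm3: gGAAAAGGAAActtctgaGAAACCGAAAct
Oas1a: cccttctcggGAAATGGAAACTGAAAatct
Oas1g: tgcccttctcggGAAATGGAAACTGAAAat
Rsad2: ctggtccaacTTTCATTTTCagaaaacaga

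The Isg15 window, at chr4:156200871-156200900 on the minus strand, held 3 overlapping matches that began 78 bases before the start. Bst2 had 2 overlapping matches from 130 bases before its start (chr8:71537580-71537609, minus strand), and Ifit1 had 2 separate ones from 104 bases before (chr19:34640785-34640814, plus strand). The windows of Ifit3 (chr19:34583397-34583426) and Ifit3b (chr19:34607793-34607822), both on the plus strand, are letter for letter the same. Those of Oas1a (chr5:120907526-120907555) and Oas1g (chr5:120887614-120887643), both on the minus strand, hold the same letters shifted by 2 bases. The 2 Ifitm3 matches lay after the start (chr7:141010714-141010743, minus strand), as did those of Ddx58, Eif2ak2 and Ifih1, and the Rsad2 match began 120 bases before the start (chr12:26456553-26456582, minus strand). No match was found in this window for Ifit2, Ifi35, Irf7, Irf9, Cmpk2, Dtx3l, Herc6, Ifi44, Isg20, Lgals3bp, Oasl1, Oasl2, Samd9l or Xaf1, which says only that these letters are not in these bases. Promoters of Dhx58, Zbp1, Oas2, Mx1, Mx2, Usp18, Parp9, Parp14, Ifi27, Ifi27l2a and Rtp4 were not analysed here.

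Levels between genes were compared as CPM per kilobase of exon. Lgals3bp, a secreted glycoprotein that binds galectins, and Ifitm3, a membrane protein that blocks viral entry, stood at means over the 9 mice of 94.4 and 122 CPM per kilobase (89.4 and 51.6 in naive WT, 118 and 266 in WT CAC, 76 and 47 in Cldn2TG CAC mice), and Irf7, the transcription factor that amplifies interferon production, at 67.2 (48.6, 92.1 and 60.9). The order held for the pooled mean and not in each group, since Ifi27 was above Ifitm3 and Irf7 in naive WT mice, at 52.9 CPM per kilobase, and Irf7 and Ifi27 (60.8) were above Ifitm3 in Cldn2TG CAC mice. At the other end of the means over the 9 mice were Mx2, Ifi44 and Mx1, at 0.284, 1.07 and 1.05 CPM per kilobase. This order too did not hold in each group. In naive WT mice Herc6 (0.902) and Ifit3b (1.11) were below Ifi44 (1.19), and in Cldn2TG CAC mice Oas2 (0.596) was below Mx1 (0.681). The MX proteins are GTPases that block viral replication, and C57BL/6 mice are known to carry a defective Mx1 allele. Mx2 held 3 to 61 counts per mouse, so its values rest on the fewest reads of the set, and all 39 genes had enough counts to be tested in each comparison.

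In the colon of WT CAC mice 5 of the 39 genes rose against naive WT mice: Zbp1, Ifit2, Ifit3b, Ifitm3 and Ifi35, by 1.52- to 7.93-fold. None fell. Across all 15437 genes tested, 8.04% were called higher, so that the share of the set, 12.8%, was near that of all genes and is no result about the set. A larger part of the set leaned the same way without passing the test: 35 of 39 genes had a positive log2 difference (52.0% of all genes tested), and 14 had an unadjusted p below 0.05 with a higher level (17.0% of all genes). The median log2 difference was 0.61 over the set and 0.02 over all genes tested.

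Zbp1, a sensor of Z-form nucleic acid that triggers necroptosis, lies at chr2:173206612-173218923 and was at 27.1, 28.8 and 57.5 CPM in naive WT mice, 81.1, 169 and 108 CPM in WT CAC mice and 82.0, 58.4 and 42.1 CPM in Cldn2TG CAC mice. All WT CAC mice were above all naive WT mice, while the highest Cldn2TG CAC mouse reached the lowest WT CAC mouse. The log2 difference was 1.68 ± 0.37 (SE) in WT CAC against naive WT (edgeR adjusted p = 0.0295) and -0.99 ± 0.32 in Cldn2TG CAC against WT CAC (edgeR adjusted p = 0.103).

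Ifit2 had the widest range of the set. It encodes a tetratricopeptide-repeat protein that binds viral RNA and is also linked to cell death, and lies at chr19:34550694-34576419 in the Ifit cluster. Its level was 8.06, 4.87 and 13.9 CPM in naive WT mice, 18.9, 141 and 50.8 CPM in WT CAC mice and 8.54, 3.90 and 4.14 CPM in Cldn2TG CAC mice. Every WT CAC mouse was above every other mouse, but mouse 4 was close to naive mouse 3. It rose by 2.99 ± 0.76 on the log2 scale in WT CAC against naive WT (edgeR adjusted p = 0.0464) and fell in Cldn2TG CAC against WT CAC, with a log2 difference of -3.69 ± 0.79 (edgeR adjusted p = 0.0357). Without mouse 5 the log2 differences of Ifit2 were 1.99 and -2.69.

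Ifit3b (chr19:34607970-34613401), a near copy of Ifit3, was measured at 1.84, 2.06 and 2.78 CPM in naive WT mice, 3.40, 13 and 8.57 CPM in WT CAC mice and 3.72, 2.64 and 2.07 CPM in Cldn2TG CAC mice. WT CAC mice were above naive WT mice without overlap, whereas mouse 7 of the Cldn2TG CAC group was above mouse 4. The log2 difference was 1.92 ± 0.46 in WT CAC against naive WT (edgeR adjusted p = 0.0328) and -1.59 ± 0.47 in Cldn2TG CAC against WT CAC (edgeR adjusted p = 0.0737). Reads could be split between Ifit3 and Ifit3b, so that either value alone is uncertain. Ifit3 itself had log2 differences of 1.54 ± 0.50 and -1.95 ± 0.60, with edgeR adjusted p = 0.0763 and 0.093.

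Ifitm3 (chr7:141009586-141010770) was at 31.0, 28.0 and 46.1 CPM in naive WT mice, 55.6, 156 and 329 CPM in WT CAC mice and 29.5, 31.3 and 34.8 CPM in Cldn2TG CAC mice. It was highest in mouse 6, unlike most of the set, and the WT CAC mice stood apart from both other groups. It rose by 2.39 ± 0.61 on the log2 scale in WT CAC against naive WT (edgeR adjusted p = 0.0466) and the difference of Cldn2TG CAC against WT CAC was -2.52 ± 0.60 (edgeR adjusted p = 0.0492). Without mouse 6 the log2 differences of Ifitm3 were 1.62 and -1.73.

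Ifi35 (chr11:101448407-101458698), a leucine-zipper protein released as a danger signal, showed the smallest called difference and the least spread of the set among WT CAC mice. Its level was 31.2, 27.5 and 33.0 CPM in naive WT mice, 41.3, 45.0 and 51.0 CPM in WT CAC mice and 31.2, 36.8 and 38.9 CPM in Cldn2TG CAC mice. WT CAC mice exceeded all others without overlap. The log2 difference was 0.61 ± 0.13 in WT CAC against naive WT (edgeR adjusted p = 0.0228) and -0.38 ± 0.14 in Cldn2TG CAC against WT CAC (edgeR adjusted p = 0.128).

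**Figure D1:**
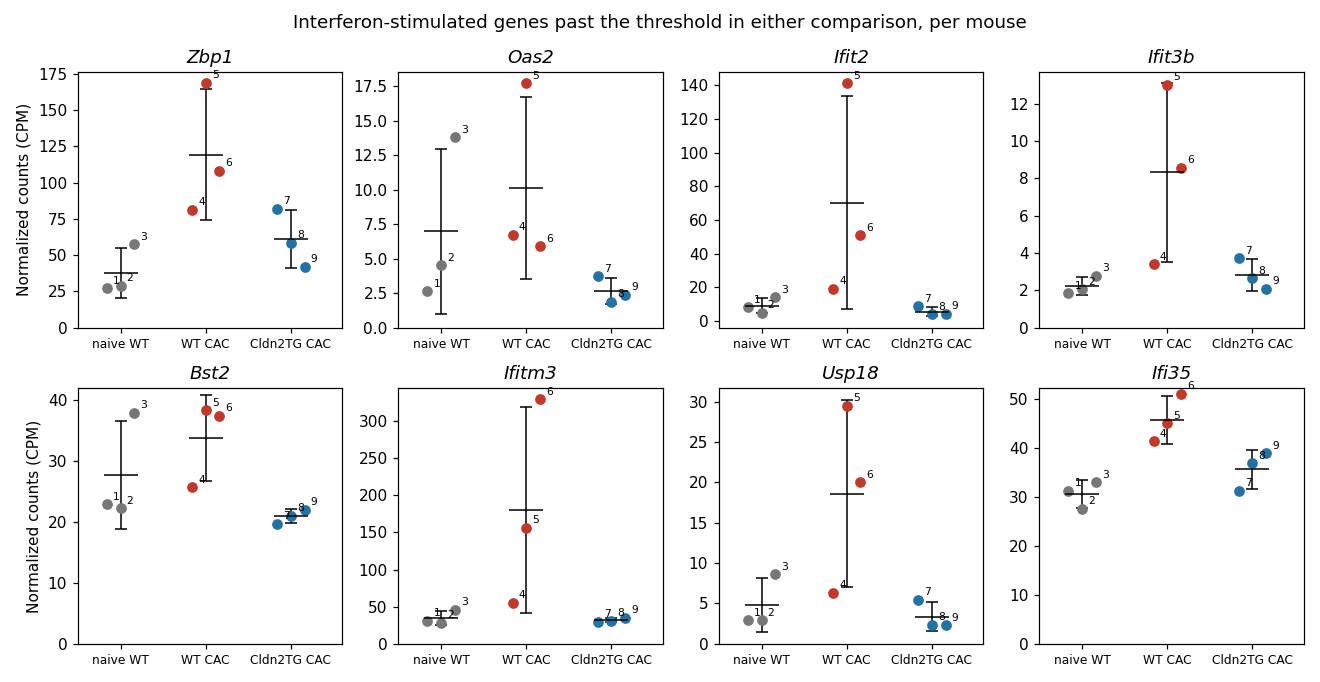
CPM (y axis, from 0) of the 8 genes that passed the test in WT CAC against naive WT or in Cldn2TG CAC against WT CAC, 1 point per mouse with its number, and bars for the mean and SD of the 3 mice of a group. WT CAC mice 5 and 6 carry most of the higher levels, up to 141 CPM for Ifit2 and 329 CPM for Ifitm3, while mouse 4 mostly sits nearer the naive WT mice. Oas2 and Ifi35 differ: for Oas2 mouse 6 (5.89 CPM) is below mouse 4 (6.71 CPM) and naive mouse 3 (13.8 CPM). For Ifi35 mouse 4 (41.3 CPM) is near mouse 5 (45.0 CPM).

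Mice with the Cldn2 transgene were compared with wild-type mice under the same carcinogen and DSS treatment. Here 5 of the 39 genes fell in Cldn2TG CAC mice, namely Oas2, Ifit2, Bst2, Ifitm3 and Usp18, and none rose. Of all 14888 genes tested 7.35% were called lower, against 12.8% of the set, again a share near that of all genes. A negative log2 difference was seen for 34 of 39 genes (48.9% of all genes tested), and 18 had an unadjusted p below 0.05 with a lower level (14.7% of all genes). All 3 Cldn2TG CAC mice were below all 3 WT CAC mice in 13 of 39 genes, against 14.3% of all genes. In WT CAC against naive WT the corresponding count of genes with no overlap was 7 of 39, against 17.7% of all genes. The median log2 difference over the set was -0.65, against 0.01 over all genes. The WT CAC mice enter both comparisons, so a high WT CAC mouse gives a positive difference in the first and a negative one in the second.

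Oas2 (chr5:120730333-120749853), an oligoadenylate synthetase that activates the antiviral ribonuclease RNase L, was at 2.64, 4.52 and 13.8 CPM in naive WT mice, 6.71, 17.7 and 5.89 CPM in WT CAC mice and 3.72, 1.87 and 2.36 CPM in Cldn2TG CAC mice. Cldn2TG CAC mice were below all WT CAC mice but within reach of naive mice 1 and 2. The log2 difference was -1.96 ± 0.48 in Cldn2TG CAC against WT CAC (edgeR adjusted p = 0.0399) and 0.56 ± 0.67 in WT CAC against naive WT (edgeR adjusted p = 0.601). Without mouse 5 these differences of Oas2 were -1.29 and -0.11, and without mouse 3 that of WT CAC against naive WT was 1.5 (edgeR adjusted p = 0.158).

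Bst2 (chr8:71534264-71537437), also called tetherin, holds budding virus at the cell surface. It was at 22.9, 22.2 and 37.9 CPM in naive WT mice, 25.7, 38.3 and 37.4 CPM in WT CAC mice and 19.7, 21 and 22 CPM in Cldn2TG CAC mice. The 3 Cldn2TG CAC mice were below every other mouse, and naive mouse 3 was as high as WT CAC mice 5 and 6. The log2 difference was -0.71 ± 0.17 in Cldn2TG CAC against WT CAC (edgeR adjusted p = 0.0344), 0.31 ± 0.24 in WT CAC against naive WT (edgeR adjusted p = 0.411) and -0.40 in Cldn2TG CAC against naive WT (edgeR adjusted p = 0.229).

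Usp18 (chr6:121245906-121270917) removes ISG15 from proteins and damps signaling at the type I interferon receptor. Its level was 2.89, 2.91 and 8.64 CPM in naive WT mice, 6.35, 29.5 and 20 CPM in WT CAC mice and 5.44, 2.38 and 2.29 CPM in Cldn2TG CAC mice. WT CAC and Cldn2TG CAC mice did not overlap, but mouse 4 was below naive mouse 3. The log2 difference was -2.49 ± 0.61 in Cldn2TG CAC against WT CAC (edgeR adjusted p = 0.0476) and 1.97 ± 0.65 in WT CAC against naive WT (edgeR adjusted p = 0.0844). Without mouse 3 the latter was 2.68 (edgeR adjusted p = 0.0753).

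For each of these 8 genes an exact two-sided permutation test of 3 against 3 mice cannot go below p = 0.1, and this value was reached wherever the groups did not overlap. The counts of called genes depended on the tool: in WT CAC against naive WT, DESeq2 called 13 of the set higher (11.4% of all genes) and voom with sample quality weights 8 (11.5% of all genes), and in Cldn2TG CAC against WT CAC, DESeq2 called 14 lower (9.97% of all genes) and voom 14 (10.9% of all genes). They also depended on single mice. Counted in either direction, the edgeR calls in WT CAC against naive WT were 0 without mouse 1, 2 or 6, 1 without mouse 3, 12 without mouse 4 (Ifi27 among them, lower) and 2 without mouse 5 (Ifi35 higher and Rsad2 lower), and in Cldn2TG CAC against WT CAC they were 15 without mouse 4 (Ifi27 among them, higher), 1 without mouse 5, 2 without mouse 6 and 0 without mouse 7, 8 or 9. The calls over all genes moved as well. In WT CAC against naive WT they went from 2310 to between 135 and 4080, which is 3.96%, 0.847%, 2.55%, 25.7%, 7.90% and 6.72% of genes tested without mice 1 to 6 in turn. In Cldn2TG CAC against WT CAC they went from 1421 to between 58 and 2894, which is 19.2%, 3.7%, 5.19%, 2.92%, 0.382% and 0.685% without mice 4 to 9 in turn. Without mouse 5 the medians over the set were 0.22 and -0.28, and without mouse 3 that of WT CAC against naive WT was 0.98.

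The direct comparison of Cldn2TG CAC with naive WT mice called none of the 39 genes by edgeR, DESeq2 or voom, while edgeR called 3.92% of all 15013 genes tested higher and 6.07% lower. At an unadjusted p below 0.05, 1 gene was higher, Oasl1 with a log2 difference of 0.49 ± 0.19 (12.2% of all genes). Likewise 1 was lower, Mx2 with -1.32 ± 0.48 (13.8% of all genes). The median over the set was 0.01, with 20 genes above 0 and 19 below. Log2 differences ran from -1.40 to 0.69, and a miss of the threshold with 3 mice a group does not show that the levels were equal.

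**Figure D2:**
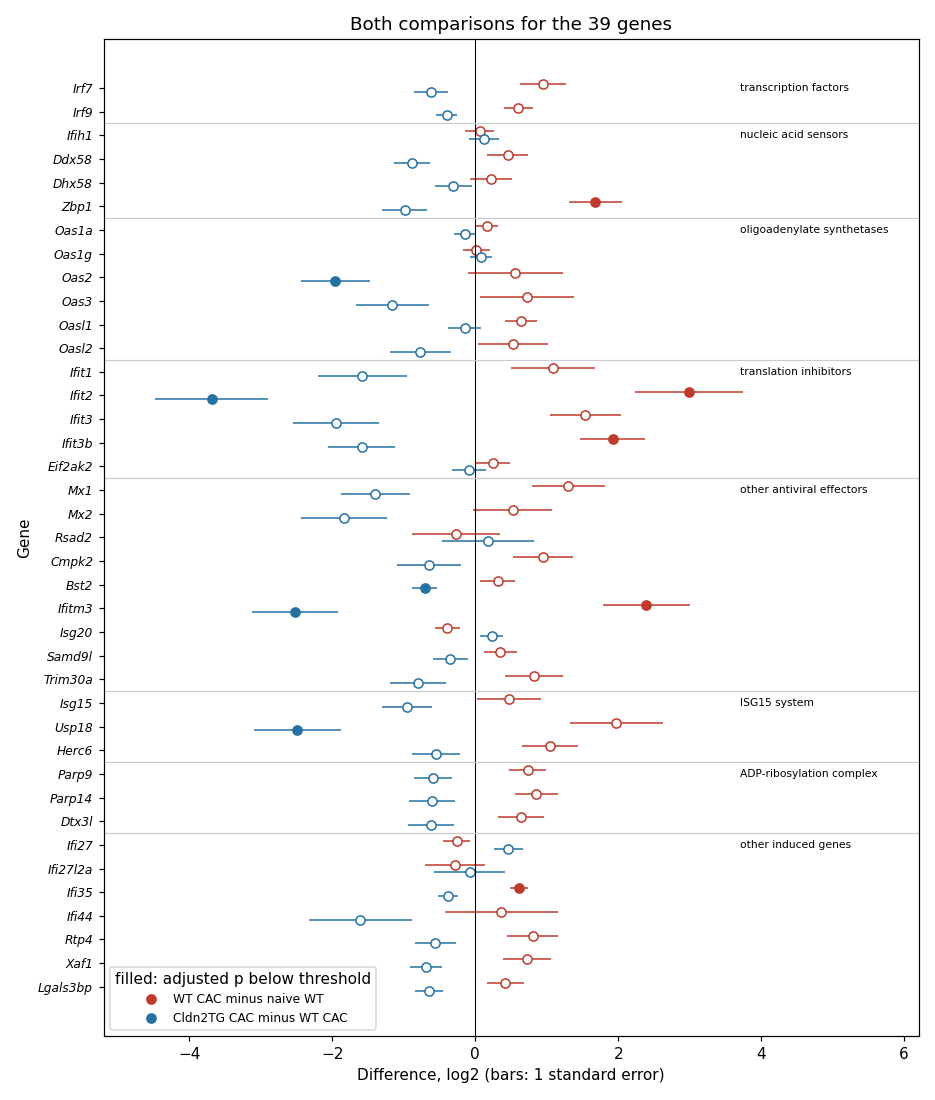
Log2 differences (x axis) with bars of 1 standard error for the 39 genes (y axis, by role) in WT CAC against naive WT (red) and Cldn2TG CAC against WT CAC (blue), filled where the adjusted p was below 0.05. Most red points lie right of 0 and most blue points left of it, but only 5 of each are filled, and both comparisons contain the WT CAC mice.

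By role, the transcription factors leaned up in WT CAC mice without passing the test. Irf7 was at 100, 133 and 207 CPM in naive WT mice, 301, 354 and 179 CPM in WT CAC mice and 188, 152 and 211 CPM in Cldn2TG CAC mice. Mouse 6 lay below naive mouse 3, and the log2 difference was 0.95 ± 0.32 (edgeR adjusted p = 0.0882). Irf9, the DNA-binding part of that complex, differed by 0.60 ± 0.20 (edgeR adjusted p = 0.0763).

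Among the cytosolic sensors the responses were unequal. Ifih1, which encodes the long-RNA sensor MDA5, was at 84.2, 96.9 and 105 CPM in naive WT mice, 82.2, 131 and 79.1 CPM in WT CAC mice and 122, 94.0 and 107 CPM in Cldn2TG CAC mice. The groups overlapped fully, with log2 differences of 0.06 ± 0.20 and 0.12 ± 0.21 in WT CAC against naive WT and Cldn2TG CAC against WT CAC. Ddx58, which encodes RIG-I, differed by 0.45 ± 0.29 and -0.89 ± 0.25 (edgeR adjusted p = 0.319 and 0.0587), and Dhx58, their regulator LGP2, by 0.22 ± 0.29 and -0.31 ± 0.26.

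Of the 6 oligoadenylate synthetase genes none rose and 1, Oas2, fell. Oas1a and Oas1g, near copies of each other whose reads could be split, were nearly flat, at 0.16 ± 0.16 and 0.01 ± 0.19 in WT CAC against naive WT and -0.15 ± 0.15 and 0.08 ± 0.15 in Cldn2TG CAC against WT CAC. Oasl2, an ubiquitin-like family member, was the most abundant in CPM. It was at 47.6, 67.4 and 129 CPM in naive WT mice, 73.2, 196 and 77.4 CPM in WT CAC mice and 94.5, 49.4 and 62.1 CPM in Cldn2TG CAC mice, so that naive mouse 3 was above WT CAC mice 4 and 6.

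The translation inhibitors had the largest median differences of the role groups, 1.54 and -1.59 on the log2 scale, with 2 of 5 rising and 1 of 5 falling. Eif2ak2, which encodes the RNA-activated kinase PKR, stood aside at 28.7, 33.6 and 37.1 CPM in naive WT mice, 27.8, 54.5 and 33.4 CPM in WT CAC mice and 39.9, 31.6 and 38.7 CPM in Cldn2TG CAC mice. Its log2 differences were 0.24 ± 0.24 and -0.09 ± 0.24. Ifit1, which recognizes RNA caps lacking a methyl group, reached 114 CPM in mouse 5 against 25.8 and 35.6 CPM in mice 4 and 6, and had log2 differences of 1.09 ± 0.59 and -1.58 ± 0.62 (edgeR adjusted p = 0.252 and 0.188).

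Of the 9 other antiviral effectors 1 rose and 2 fell. Samd9l, a restriction factor, had the highest mean CPM of the group over the 9 mice, although in WT CAC mice its mean of 116 CPM was below that of Ifitm3, 180 CPM. It was at 69.5, 93.0 and 114 CPM in naive WT mice, 102, 152 and 93.2 CPM in WT CAC mice and 118, 71.9 and 86.7 CPM in Cldn2TG CAC mice, with overlap throughout. Rsad2, which encodes viperin, was at 10.2, 13.6 and 17.2 CPM in naive WT mice, 3.86, 23.0 and 6.29 CPM in WT CAC mice and 16.7, 9.07 and 12.5 CPM in Cldn2TG CAC mice. Mice 4 and 6 were thus the lowest of all and mouse 5 the highest. Isg20, an RNA exonuclease, leaned the other way from most of the set, at -0.39 ± 0.17 and 0.23 ± 0.16 (edgeR adjusted p = 0.148 and 0.457).

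Mx1, Mx2 and Ifi44 were the lowest per kilobase of exon in the mean over the 9 mice, though not in each group. Mx1 was at 1.84, 1.91 and 4.13 CPM in naive WT mice, 4.22, 11.3 and 3.62 CPM in WT CAC mice and 3.24, 1.62 and 2.59 CPM in Cldn2TG CAC mice. Mx2 was at 0.697, 0.904 and 1.69 CPM, 0.66, 2.70 and 1.27 CPM, and 0.62, 0.456 and 0.222 CPM in the same order of groups. In both genes all Cldn2TG CAC mice were below all WT CAC mice, with log2 differences of -1.40 ± 0.48 and -1.84 ± 0.60 (edgeR adjusted p = 0.115 and 0.0943). Ifi44 was at 2.24, 5.22 and 14.4 CPM in naive WT mice, 3.91, 18.2 and 5.49 CPM in WT CAC mice and 5.44, 1.27 and 2.59 CPM in Cldn2TG CAC mice, and its spread within each group left the groups overlapping.

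In the ISG15 system, a ubiquitin-like modifier with its ligase and protease, 1 of 3 genes fell and none rose. Isg15 itself was at 19.2, 23.2 and 51.2 CPM in naive WT mice, 28.5, 65.8 and 33.0 CPM in WT CAC mice and 26.9, 15.5 and 24.7 CPM in Cldn2TG CAC mice. The Cldn2TG CAC mice lay just below the WT CAC mice without overlap, with a log2 difference of -0.95 ± 0.35 (edgeR adjusted p = 0.15). The 3 genes of the ADP-ribosylation complex, Parp9, Parp14 and Dtx3l, moved by similar amounts, 0.64 to 0.85 in WT CAC against naive WT and -0.62 to -0.59 in Cldn2TG CAC against WT CAC, and none was called. Parp9 was at 60.3, 83.0 and 87.6 CPM in naive WT mice, 84.0, 175 and 117 CPM in WT CAC mice and 107, 71.2 and 76.0 CPM in Cldn2TG CAC mice.

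Among the 7 remaining genes only Ifi35 was called. Lgals3bp was at 212, 206 and 346 CPM in naive WT mice, 260, 447 and 300 CPM in WT CAC mice and 196, 206 and 247 CPM in Cldn2TG CAC mice. Its log2 difference of Cldn2TG CAC against WT CAC was -0.65 ± 0.20 (edgeR adjusted p = 0.0829). Ifi27 was at 73.8, 78.6 and 80.6 CPM in naive WT mice, 84.1, 58.2 and 49.0 CPM in WT CAC mice and 91.5, 83.1 and 92.9 CPM in Cldn2TG CAC mice, so that mice 5 and 6 were the lowest. Log2 differences under 0.3 in size in both comparisons were found for 6 of the 39 genes, Ifih1, Oas1a, Oas1g, Eif2ak2, Rsad2 and Ifi27l2a. Apart from Ifi27l2a, whose promoter was not analysed here, these genes had the ISRE letters in their promoters.

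The order of the mice was shared by most of the set. Mouse 3 was the highest naive WT mouse for 38 of 39 genes (97.4%, against 34.2% of 15516 tested genes), and only Ifi27l2a was higher in mouse 2. Mouse 5 was the highest WT CAC mouse for 34 genes (87.2%, against 35.9%), the exceptions being Ifitm3 and Ifi35 in mouse 6 and Isg20, Ifi27 and Ifi27l2a in mouse 4. Mouse 7 was the highest Cldn2TG CAC mouse for 28 genes (71.8%, against 33.2%). Mouse 1, the only female, was the lowest naive WT mouse for 31 genes (79.5%, against 35.7%), and the part of sex in this was not tested. These tallies were made after the values were seen and are given as a description, since genes of 1 library are not independent.

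The median ratio of the highest to the lowest mouse was 1.68 in naive WT, 2.09 in WT CAC and 1.58 in Cldn2TG CAC mice, against 1.22, 1.38 and 1.28 over all genes. Relative to the naive WT mean, the median log2 level of the set was -0.34, -0.11 and 0.42 in mice 1, 2 and 3, then 0.14, 1.20 and 0.31 in mice 4, 5 and 6, and 0.28, -0.13 and -0.03 in mice 7, 8 and 9. Naive mouse 3 was therefore above WT CAC mice 4 and 6. Mouse 5 was above all naive WT mice for 35 of 39 genes, mouse 4 for 11 and mouse 6 for 13. Cldn2TG CAC mice 7, 8 and 9 were so for 13, 4 and 6 genes. The share over all genes was not computed for these counts, so they are a description and no result about the set.

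**Figure D3:**
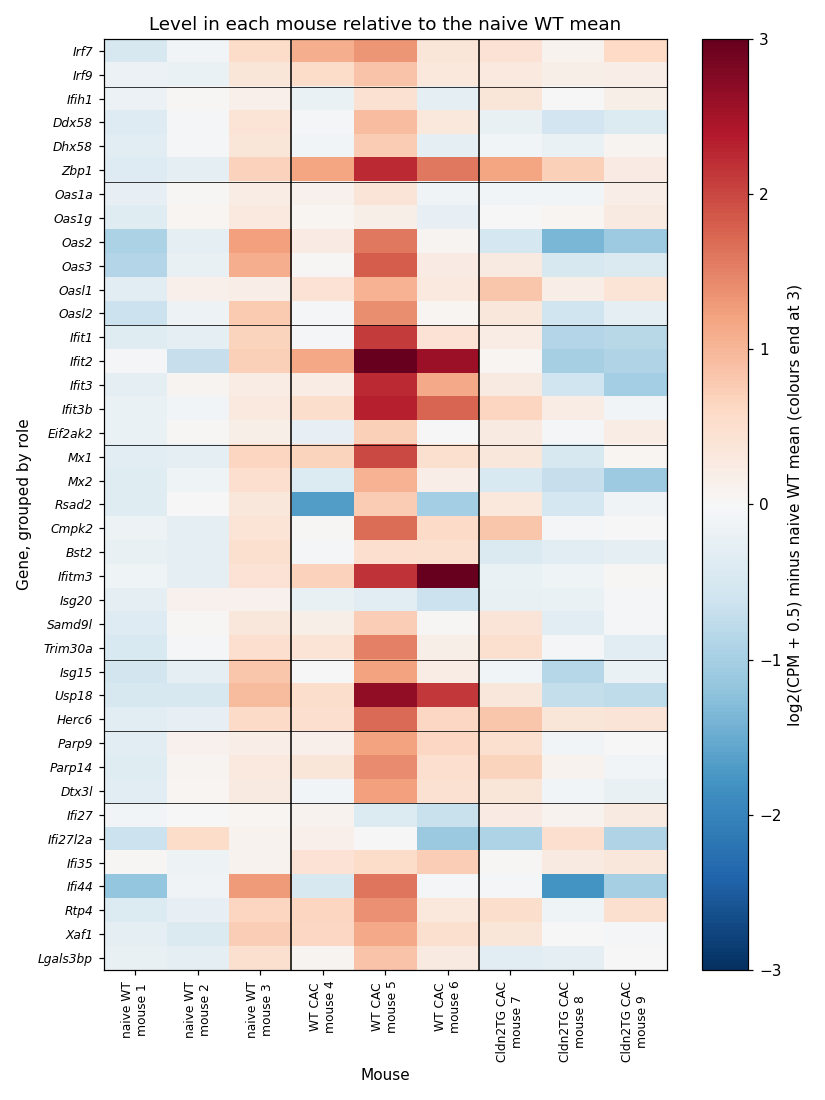
Log2(CPM + 0.5) minus the naive WT mean for each of the 39 genes (y axis, by role) in each mouse (x axis), red above and blue below that mean. Mouse 5 is red in most rows, mouse 3 is the reddest naive WT mouse, and mouse 6 stands out for Ifitm3, Ifit2 and Usp18.

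The genes upstream of the set were read from lists by role. Of 21 interferon ligand genes 19 had no count in any mouse and Ifne had 1 count in mouse 5. Expression of these type I and type III ligands was thus not detected in these counts. The remaining gene, Ifng, which encodes interferon-gamma, had 13 counts in all, spread over 6 of the 9 mice, with at most 4 in a mouse. A count of 0 in a library allows a level of up to 0.13 to 0.222 CPM. For ligand genes similar in sequence it could be higher, if reads shared between genes were not counted, a setting that was not given. Among 6 interferon receptor genes, Il10rb, a subunit of the type III receptor, rose by 0.38 ± 0.11 in WT CAC against naive WT (edgeR adjusted p = 0.0491) and none fell in either comparison. Ifnar1, the type I receptor chain, differed by 0.18 ± 0.13 and -0.18 ± 0.14, and Ifnar2 by 0.81 ± 0.36 and -1.19 ± 0.37 (edgeR adjusted p = 0.163 and 0.0806).

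Among the signal transducers, Stat2 had a log2 difference of 0.77 ± 0.25 in WT CAC against naive WT (edgeR adjusted p = 0.0761) and fell in Cldn2TG CAC against WT CAC, with a log2 difference of -0.79 ± 0.19 (edgeR adjusted p = 0.0342). The kinases Jak1 and Tyk2 were not called, at -0.25 ± 0.12 and 0.09 ± 0.13 in WT CAC against naive WT.

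Among 8 further regulatory factors, Irf1, Irf4 and Irf5 rose and Irf2 and Irf2bp2 fell in WT CAC against naive WT, by 0.47, 1.69, 1.5, -0.47 and -0.61 on the log2 scale. In Cldn2TG CAC against WT CAC, Irf4 and Irf5 fell, with log2 differences of -2.46 ± 0.56 and -1.93 ± 0.35. Irf4 and Irf5 are expressed mainly in leukocytes, and Irf2 is a repressor of interferon-stimulated genes. Of 5 feedback inhibitors, Socs1, Socs3 and Ptpn6 rose in WT CAC mice, by 1.25 ± 0.29, 3.23 ± 0.68 and 0.45 ± 0.10, and Ptpn6, a phosphatase of hematopoietic cells, fell in Cldn2TG CAC against WT CAC (-0.46 ± 0.12, edgeR adjusted p = 0.0422). Of 14 adaptors, kinases and sensors that induce interferon, Tlr7 rose and Ticam1 fell in WT CAC mice, by 1.5 ± 0.41 and -0.46 ± 0.12, and of 13 tested in Cldn2TG CAC against WT CAC only Tlr7 was called, at -2.07 ± 0.48.

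Genes known mainly as interferon-gamma targets, such as guanylate-binding proteins and immunity-related GTPases, had medians farther from 0 than the 39 genes. All 17 tested were above 0 in WT CAC against naive WT, with a median log2 difference of 2.32, and 7 rose. All 16 tested were below 0 in Cldn2TG CAC against WT CAC, with a median of -2.01, and 3 fell, namely Gbp4, Ido1 and Nlrc5. Gbp2 was at 27.7, 32.7 and 59.8 CPM in naive WT mice, 87.6, 310 and 194 CPM in WT CAC mice and 86.1, 65.5 and 28.3 CPM in Cldn2TG CAC mice. The difference between the medians of both lists was not tested.

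All 5 leukocyte markers (among them Ptprc, the CD45 gene, and Coro1a) rose in WT CAC against naive WT and all 5 fell in Cldn2TG CAC against WT CAC, and their summed level was 20.9 to 58.6, 124 to 156 and 22.7 to 38.0 CPM in the naive WT, WT CAC and Cldn2TG CAC groups. Of 8 macrophage and monocyte markers 4 rose and 5 fell in these comparisons, with sums of 147 to 172, 172 to 347 and 94.8 to 129 CPM. Of 7 T cell markers 6 rose and 6 fell, with sums of 6.18 to 12.3, 20.8 to 36.5 and 7.4 to 12 CPM. Of 6 B and plasma cell markers 2 rose and 3 fell, with sums of 41.3 to 95.4, 236 to 460 and 39.4 to 107 CPM. Of 5 endothelial markers none was called in WT CAC against naive WT and 3 fell in Cldn2TG CAC against WT CAC, with sums of 28.8 to 34.6, 26.4 to 39.5 and 12.9 to 16.5 CPM, and 4 fell in Cldn2TG CAC against naive WT. Of 6 smooth muscle markers none was called in WT CAC against naive WT or Cldn2TG CAC against WT CAC, where the medians of their log2 differences were -0.77 and -0.55 with all 6 below 0 in each, and 2 fell in Cldn2TG CAC against naive WT (median -1.39). They summed to 1954 to 3966 CPM in naive WT mice, 2875, 1036 and 1260 CPM in mice 4, 5 and 6 and 939 to 1452 CPM in Cldn2TG CAC mice. Their part in the results on the 39 genes was not tested, and in bulk colon fewer cells of a type and less RNA per cell cannot be told apart. Leukocyte sums in mice 1 to 9 were 58.6, 20.9, 37.3, 124, 156, 150, 36.6, 38.0 and 22.7 CPM in turn. Sums over the 39 genes were 1226, 1443, 2052, 1869, 3381, 2168, 1807, 1419 and 1608 CPM in the same order. Mouse 5 was highest in both, and mouse 1, the only female, was lowest in the second and highest of the naive WT mice in the first. A link between the sums was not tested.

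Ly6g, the largest of 6 neutrophil markers, was at 137 to 207, 298 to 327 and 302 to 350 CPM in the 3 groups. Its log2 difference was 0.82 ± 0.17 in WT CAC against naive WT (edgeR adjusted p = 0.0206). It was 0.04 ± 0.12 in Cldn2TG CAC against WT CAC and 0.87 ± 0.15 in Cldn2TG CAC against naive WT (edgeR adjusted p = 0.902 and 0.00881). The 5 others were highest in mice 5 and 6. Without Ly6g they summed to 0.0502 to 0.825 CPM in naive WT mice, 2.03, 51.4 and 28.1 CPM in mice 4, 5 and 6 and 0.222 to 0.507 CPM in Cldn2TG CAC mice. The whole list of 6 summed to 137 to 208, 300 to 378 and 302 to 351 CPM, and 4 of 4 tested rose in WT CAC against naive WT and 2 of 3 fell in Cldn2TG CAC against WT CAC. Fibroblast markers, 6 genes of which none was called in WT CAC against naive WT and 2 fell in Cldn2TG CAC against WT CAC, were also highest in mouse 5, at a sum of 1119 CPM against 446 and 511 CPM in mice 4 and 6, 292 to 422 CPM in naive WT mice and 181 to 260 CPM in Cldn2TG CAC mice. Siglech, the defining marker of plasmacytoid dendritic cells, a main source of type I interferon, was at 0 to 0.149, 0.469 to 1.68 and 0.0507 to 0.148 CPM, so that all 3 WT CAC mice were above every other mouse. The list of 7 for these cells summed to 1220 to 1647, 621 to 1139 and 1240 to 1578 CPM, with Klk1 the largest gene in every mouse, at 412 to 1528 CPM. Without Klk1 it summed to 114 to 126, 143 to 263 and 122 to 140 CPM, with WT CAC mice above all others. Of the list 1 of 6 tested rose in WT CAC against naive WT and 1 of 6 fell in Cldn2TG CAC against WT CAC. Both times this was Ly6d, at 12.2, 39.5 and 103 CPM in mice 4, 5 and 6 and at most 3.68 CPM elsewhere. Ccr9 (log2 differences 1.27 and -0.78) and Tcf4 (0.79 and -0.83) leaned the same way without being called. Klk1 (-1.15 and 0.99) leaned the other way, and Pacsin1 (-0.13 and 0.09) and Irf8 (0.16 and 0.05) were nearly flat. Siglech had too few counts to be tested. Whether any of these cells had a part in the results was not tested.

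**Figure D4:**
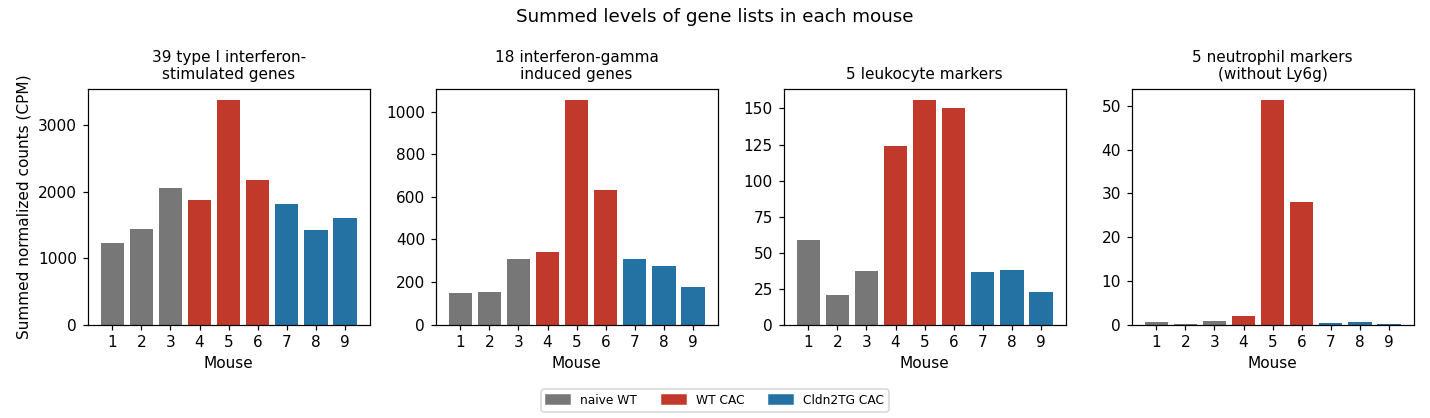
Summed CPM (y axis, from 0) in each mouse (x axis, bars coloured by group) for the 39 type I interferon-stimulated genes, 18 interferon-gamma induced genes, 5 leukocyte markers and 5 neutrophil markers without Ly6g. Leukocyte markers separate all 3 WT CAC mice from the others, at 124 to 156 CPM, while the sum over the 39 genes stands apart only in mouse 5, at 3381 CPM.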

How the data were processed

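RNA-Seq was done on total RNA from 9 colons. The authors deposited whole-number counts per gene for each of 2 lanes per library. The submitters' processing notes name HISAT2, featureCounts and GRCm38, whereas the methods name TopHat2 with featureCounts; their versions, the strand setting and handling of multi-mapped reads were not given in the sources used here. Lanes were added up after a chi-square test showed that they agree within sampling noise (chi-square per degree of freedom 0.995 to 1.06).

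Each pair of groups was fitted on its 6 mice with edgeR 4.0.16 in R 4.3.3 (TMM, filterByExpr with a minimum count of 10, robust quasi-likelihood test, two-sided). P-values were adjusted by Benjamini-Hochberg over all genes tested, and genes below 0.05 are called. DESeq2 (named by the authors without a version, here 1.42.0), limma 3.58.1 (voom), other scalings, filters, single lanes and left-out mice were alternatives. CPM values are TMM-scaled over 9 mice, and ± after a log2 difference is its standard error.

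The members and lists were chosen with earlier results of these data known. Genes with full values were those called in WT CAC against naive WT or Cldn2TG CAC against WT CAC, the 3 highest and 3 lowest per exon length, and the most abundant in each role. Rsad2, Ifi27 and Gbp2 were added after their values were seen, and 1 gene of the signaling lists is not reported here. Promoter sequences are from RefSeq on GRCm38.p6.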

Additional observations from a re-analysis of the deposited data

How the results depend on the processing

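The medians over the 39 genes were 0.58 to 0.64 in WT CAC against naive WT and -0.75 to -0.62 in Cldn2TG CAC against WT CAC with all mice kept, and 0.22 to 0.98 and -0.80 to -0.28 with 1 mouse left out. Both were smallest, 0.22 and -0.28, without mouse 5, and the first was largest without mouse 3. In Cldn2TG CAC against naive WT the median was -0.18 to 0.23 with 1 mouse left out. The counts of called genes were less stable. In WT CAC against naive WT the count of 5 became 3 with library size only (14.8% of all genes called, against 15%), 2 with no filter on low counts (9.40%), 13 by DESeq2 (20.9%), 8 by voom (20.7%), 3 in lane 1 (13.7%), 2 in lane 2 (12.8%), 7 with all 9 mice in the fit (20.6%), and 0 to 12 with 1 mouse left out, where the calls over all genes ran from 135 to 4080. In Cldn2TG CAC against WT CAC the count of 5 became 3 with at least 10 counts in every mouse (6.88% of all genes called, against 9.54%), 14 by DESeq2 (13.9%), 15 by voom (15.5%, Ifi27 higher and the others lower), 2 in lane 1 (8.85%), 3 in lane 2 (7.48%), 7 with library size only (10.2%), 6 with upper quartile normalization (9.80%), 4 with no filter (6.53%), and 0 to 15 with 1 mouse left out, where the calls over all genes ran from 58 to 2894. With all 9 mice in the edgeR fit it was again 5 (14.0%), but Oas2 and Bst2 lost their call (adjusted p = 0.0822 and 0.0538) and Ifit3 and Ifit3b were called in their place. In Cldn2TG CAC against naive WT the count of 0 became 3 with no filter on low counts (Oasl1, Mx2 and Bst2, with 9.91% of all genes called against 10.0%), and stayed 0 with any mouse left out. The cause of these shifts was not tested. Of the 8 called genes, only Ifi35 kept its call in all 10 alternatives that kept all mice (adjusted p up to 0.0318 by these fits), and no called difference of the 8 changed sign in any fit. No paired analysis was possible because the groups share no replicate numbers. With library size only, the median over all genes was -0.111 in Cldn2TG CAC against naive WT, and the median over the set moved with it to -0.11.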

Other observations

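A second group of regulatory letters was looked at in the same promoters. The gamma-activated site was searched as TTC, any 3 bases and GAA, which reads the same on both strands. It stood in the promoters of 7 of the 28 genes with a sequence (25.0%), against 9.55% of all 27025 genes, namely Bst2, Eif2ak2, Ifi35, Ifit2, Ifitm3, Isg20 and Oas1a. The Ifitm3 and Ifi35 matches lay just after the start and the Ifit2 match began 241 bases before it. Of these 7 genes Ifit2, Ifitm3 and Ifi35 rose in WT CAC against naive WT, Bst2 was called only in Cldn2TG CAC against WT CAC, and the others were not called in either. A match of these letters is a description and not a bound site.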
